A study of Mus musculus with 2 samples.

Results

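The gene set examined here holds Mcts2, the gene H13 that surrounds it, and Grb10, Peg10, Kcnq1ot1, H19, Meg3, Peg3, Impact and Snrpn. These 10 genes, of 27998 in the deposited matrices, lie in imprinted domains of the mouse genome, and all 10 were found by symbol. They were selected on their UMI counts and knockout over wild-type ratios in these same libraries, so those ratios are given as a description with no test. The samples were mouse induced pluripotent stem cells (iPSCs, reprogrammed cells with properties of embryonic stem cells) grown in medium with serum. In 1 library the cells were homozygous for deleted Srf (SRFΔ/Δ, knockout). In the other they were homozygous for floxed, unrecombined Srf (SRFf/f, called wild type). Srf encodes serum response factor, a transcription factor of cytoskeletal and immediate early genes. How the alleles were recombined, how many clones the cells came from and their passage are not given in the labels. Each genotype had 1 library, so every difference compares 2 libraries without a replicate check. All intervals are 95% and cover counting error only.

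At an imprinted gene, the copy inherited from 1 parent is transcribed and the other is largely silent. In many imprinted domains this difference goes back to DNA methylation laid down in the egg or the sperm. ZFP57 and TRIM28 bind the methylated copy and hold the mark through early development, and DNMT1 with UHRF1 copies it at each cell division. Cultured pluripotent stem cells are known to lose or gain such marks in some domains. The counts used here do not separate the parental alleles and hold no methylation data, so they give the level of each gene and not its imprint. Mcts2 is a retrogene, an intronless copy of the X-linked gene Mcts1. It is known to be transcribed from the paternal allele within an intron of H13, and H13 transcripts end at different places on the maternal and paternal alleles. H13 encodes signal peptide peptidase.

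In the GENCODE M21 annotation (GRCm38), Mcts2 is a single exon of 912 bases on chromosome 2, from 152687035 to 152687946 on the plus strand. It lies on the same strand as H13 (152669461 to 152708670), inside intron 4 of H13-201, H13-202 and H13-204, which runs from 152686187 to 152688662. The transcript H13-203 ends 334 bases before the start of Mcts2, at 152686701. Counts per gene do not separate these H13 transcripts, and a read from unspliced H13 RNA across the Mcts2 exon could be counted as Mcts2. The bases upstream of both start sites, from RefSeq's promoter windows on GRCm38.p6, are shown because the 2 genes of 1 locus differed in opposite directions. Capitals mark TGCCGC, the motif of ZFP57, searched on both strands. The first sequence is chr2:152686898-152687034 and the second is chr2:152669211-152669460, both on the plus strand.
Mcts2: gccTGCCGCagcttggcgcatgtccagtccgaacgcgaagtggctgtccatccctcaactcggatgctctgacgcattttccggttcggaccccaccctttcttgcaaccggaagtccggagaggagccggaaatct
H13: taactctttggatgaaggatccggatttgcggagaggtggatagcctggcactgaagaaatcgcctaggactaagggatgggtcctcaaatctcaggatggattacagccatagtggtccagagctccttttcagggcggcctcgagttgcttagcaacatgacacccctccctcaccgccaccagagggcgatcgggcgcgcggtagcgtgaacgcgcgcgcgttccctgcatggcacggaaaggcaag
The Mcts2 sequence of 137 bases held 12 CpG dinucleotides and 1 TGCCGC, which starts at its base 4. The H13 sequence of 250 bases held 18 CpG and no TGCCGC. Over whole windows of 300 bases, TGCCGC was present in 11.7% of 32544 promoter windows. Windows of 7 of the 10 genes were searched, 12 windows in all. Of these windows 4 held it, 1 each of Mcts2, Grb10, Meg3 and Snrpn. No window of Peg10, H19 or Impact was searched, so these counts do not cover those genes. The motif includes a CpG, and the 11.7% was not matched for CpG content. All windows had a median of 7 CpG. The 4 windows with the motif had 25 (Mcts2), 45 (Grb10), 13 (Meg3) and 7 (Snrpn). A match describes the letters only and is not a measured binding site.

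Cells with at least 1000 detected genes, 1 to 10% mitochondrial counts and under 5 UMIs (unique molecular identifiers, 1 per captured RNA molecule) over the fibroblast genes Col1a2, Col3a1 and Acta2 were used. In the knockout library 731 of 1073 cells passed, with 18203451 UMIs and a median of 24423 per cell, and in the wild-type library 893 of 954 did, with 23270714 UMIs and a median of 26656. The mitochondrial limits removed unequal numbers, since 246 knockout and 17 wild-type cells were under 1%. Of the cell barcodes, 2 occurred in both libraries, and 1 of them was kept in both. Srf had 3 UMIs in the knockout cells and 202 in the wild-type cells. Pluripotency markers were abundant in both libraries, at 8875 and 12608 CPM (UMIs per 1e6 UMIs of the summed library) summed over 8 genes, and all 8 were detected in each. Most of each sum was Dppa5a, at 6777 and 10272 CPM. Of the 8, 7 were lower in the knockout and 1 (Zfp42) was higher. The 10 primitive endoderm markers (Gata6, Sox17 and others, genes of an early extra-embryonic lineage) summed to 352.1 CPM in the knockout and 14.3 CPM in the wild-type library, and all 10 were higher in the knockout. The 8 fibroblast markers summed to 15.8 and 9.50 CPM, at 0 to 45 and 0 to 35 UMIs per cell. The median of both was 0. A mean level of at least 10 CPM was reached by 6554 genes. Their log2 ratios (knockout over wild type) had a median of 0.09 and 10th and 90th percentiles of -0.30 and 0.50. Another scaling (TMM) moved that median to -0.02.

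Mcts2 had the highest ratio of all 6554 genes, while its host H13 was lower in the knockout. The knockout library held 1096 Mcts2 UMIs (60.2 CPM, interval 56.7 to 63.9) and the wild-type library 13 (0.559 CPM, interval 0.297 to 0.955), which is a log2 ratio of 6.70 (interval 5.97 to 7.67). Next after Mcts2 among the 6554 genes came Gata6 (749 and 21 UMIs, log2 ratio 5.48), a primitive endoderm transcription factor. For H13 the knockout library held 393 UMIs (21.6 CPM, interval 19.5 to 23.8) and the wild-type library 754 (32.4 CPM, interval 30.1 to 34.8), a log2 ratio of -0.58 (interval -0.77 to -0.41). The H13 ratio depended on which cells were summed. It was -0.96 without the cells that carried at least 2 raw UMIs of the primitive endoderm markers. With the fibroblast-rule cells put back, in which H13 was at 275.6 CPM (knockout) and 192.4 CPM (wild type), it was -0.16. Among cells with 0 UMIs of Col1a2, Col3a1 and Acta2 it was -0.59.

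**Figure D1:**
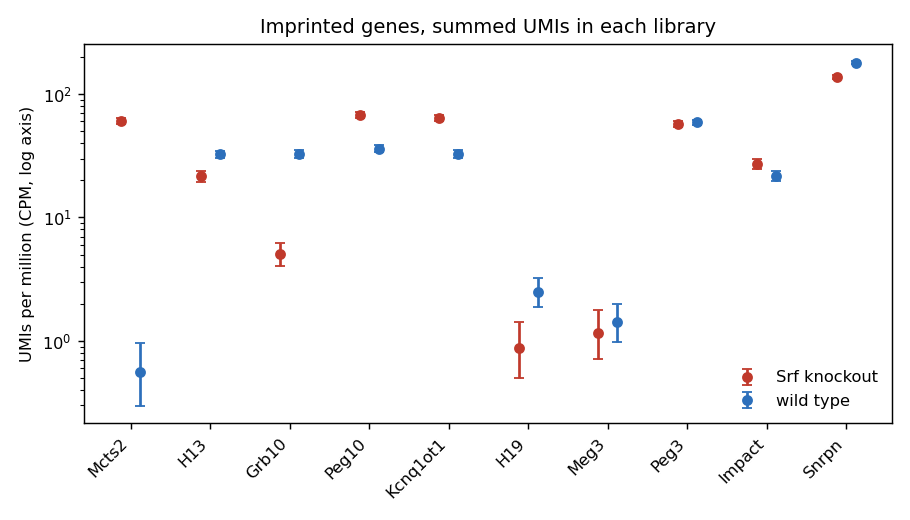
Level of each of the 10 genes in the Srf knockout library (red) and the wild-type library (blue), in CPM, summed over the kept cells, on a log axis. Bars are 95% Poisson intervals of counting error, with 1 library per genotype. Mcts2 stood at 60.2 against 0.559 CPM and Grb10 at 5.05 against 32.8 CPM, while the points of Peg3 nearly coincided.

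Mcts1, the gene from which Mcts2 was copied, encodes a translation re-initiation factor and is the gene most likely to share reads with it. It had 855 UMIs (47.0 CPM) in the knockout and 1068 (45.9 CPM) in the wild type, and its log2 ratio of 0.03 (interval -0.10 to 0.16) spanned 0. The coding sequences of both genes are 546 bases long and identical at 467 positions (85.5%). None of the 863 stretches of 50 bases along Mcts2 occurred in a Mcts1 transcript of the annotation.

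The other 11 genes of at least 10 CPM within 500 kb of H13 had a median log2 ratio of 0.32, with 9 higher and 2 lower in the knockout (8 and 3 with TMM), and 1 was past 2-fold. Over all 6554 genes 3996 were higher, the median was 0.09 and 1.6% were at least 2-fold higher. The neighbour past 2-fold was Id1, an inhibitor of differentiation factors and target of BMP signalling, with its start 49.2 kb downstream of that of Mcts2. Id1 was at 104.2 CPM against 26.4 CPM (log2 ratio 1.98, interval 1.85 to 2.12). Bcl2l1, which encodes the anti-apoptotic protein BCL-XL, followed at 0.64 (interval 0.43 to 0.85). The 2 lower genes were Sox12, a transcription factor of the SoxC group, at -0.53 (interval -0.77 to -0.29), and Csnk2a1, a catalytic subunit of casein kinase 2, at -0.07 (interval -0.16 to 0.03).

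**Figure D2:**
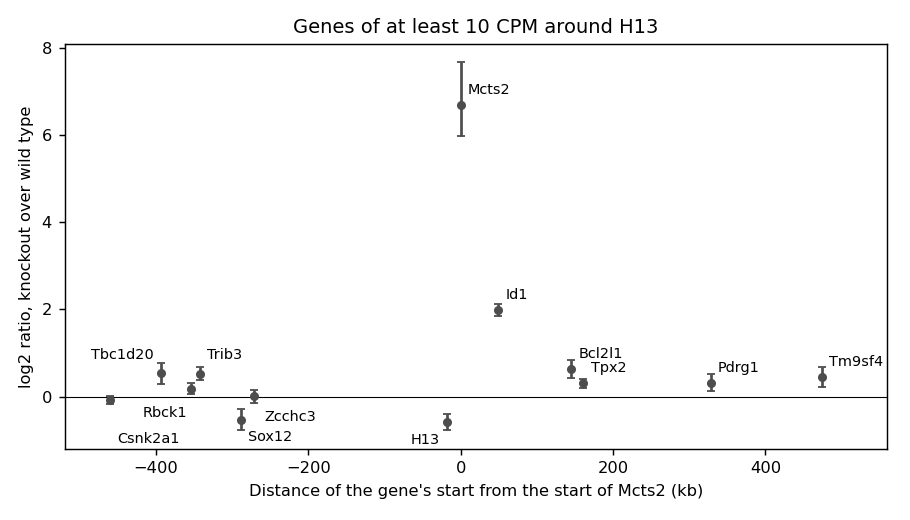
Log2 ratio of knockout over wild type (vertical) for genes of at least 10 CPM around H13, by the distance of each gene's start from the start of Mcts2 in kb (horizontal). Bars are 95% counting intervals. Mcts2 stands at 6.70 and Id1 at 1.98, and H13, which encloses Mcts2, at -0.58.

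The high Mcts2 level was spread over many knockout cells rather than held by a few. To compare cells at equal depth, each cell was thinned to 10562 UMIs, which kept 661 knockout and 800 wild-type cells and left out 70 and 93 shallower ones. At that depth a Mcts2 UMI was found in 302 of 661 knockout cells (45.7%, exact interval 41.8 to 49.6). In the wild-type library it was found in 6 of 800 (0.750%, exact interval 0.276 to 1.63). Unthinned, the shares were 71.0% and 1.34%. The 359, 202, 80 and 15 knockout cells with 0, 1, 2 and 3 UMIs lay beside 346.5, 223.8, 72.3 and 15.6 cells of a Poisson distribution with the same mean, and 5 cells had 4 or more. The Fano factor (variance over mean) was 1.08, where a Poisson distribution has the same variance as mean. The cell richest in Mcts2 held 10 of the 1096 raw UMIs. With the knockout cells divided by depth into 4 equal parts, the Mcts2 level was 59.1, 55.1, 58.5 and 64.6 CPM from shallow to deep, with intervals that overlapped. In the cells left out for their fibroblast genes, Mcts2 was at 9.67 CPM (6 UMIs, interval 3.55 to 21.0) in the knockout library. In the wild-type library it was at 11.3 CPM there (2 UMIs, interval 1.37 to 40.9). Both intervals lay above the 0.297 to 0.955 CPM of the kept wild-type cells. The shares of these fibroblast-rule cells with a Mcts2 UMI at equal depth were 2 of 17 (exact interval 1.46 to 36.4%) and 1 of 6 (0.421 to 64.1%). From so few cells, both share intervals overlapped that of the 0.750% of kept wild-type cells. Whether the few wild-type UMIs came from free RNA was not tested.

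**Figure D3:**
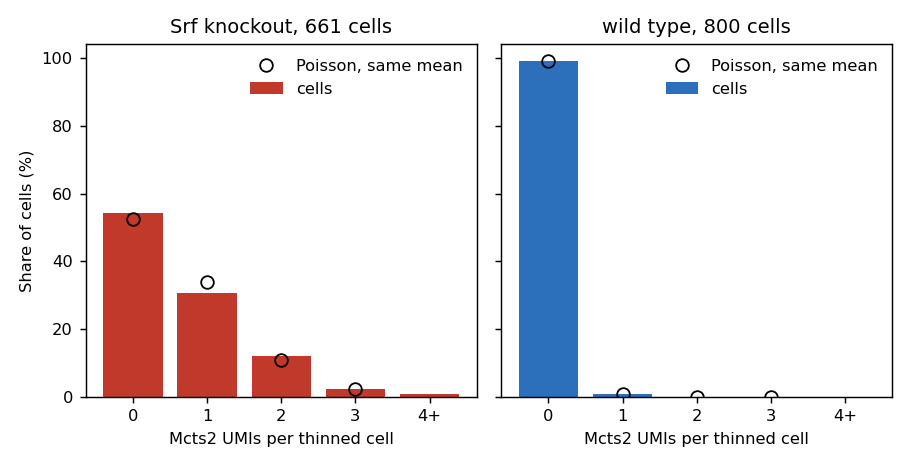
Share of thinned cells (10562 UMIs each, in percent) with 0, 1, 2, 3 and 4 or more Mcts2 UMIs in the knockout (left, 661 cells) and wild-type (right, 800 cells) libraries. Open circles are the shares of a Poisson distribution with the same mean. The knockout bars and circles nearly coincide, and 794 of the 800 wild-type cells are at 0.

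Among the genes that act on growth, Grb10 was lower in the knockout and Peg10 was higher. Grb10 encodes an adaptor that restrains insulin and IGF signalling, and is expressed from the maternal allele in most tissues. It had 92 UMIs (5.05 CPM, interval 4.07 to 6.20) against 763 (32.8 CPM, interval 30.5 to 35.2), a log2 ratio of -2.69 (interval -3.03 to -2.38), the sixth lowest of the 6554 genes. At equal depth a Grb10 UMI was found in 33 of 661 cells of the knockout (4.99%) and in 194 of 800 of the wild type (24.3%). The ratio was -1.85 with the fibroblast-rule cells put back, where Grb10 stood at 128.9 CPM (knockout) and 67.9 CPM (wild type). Without the cells of at least 2 raw endoderm-marker UMIs, which left 557 knockout and 866 wild-type cells, it was -3.05. Peg10, a retrotransposon-derived gene needed for the placenta, had 1227 UMIs (67.4 CPM) against 839 (36.1 CPM). Its log2 ratio was 0.90 (interval 0.77 to 1.03), with 42.2% and 27.3% of thinned cells positive.

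Of the long non-coding RNAs, Kcnq1ot1 was well measured, whereas H19 and Meg3 rested on a few cells. Kcnq1ot1 is the paternal antisense transcript that silences the Cdkn1c domain. It had 1162 UMIs (63.8 CPM) in the knockout and 764 (32.8 CPM) in the wild type, a log2 ratio of 0.96 (interval 0.83 to 1.09), and 42.7% and 24.5% of thinned cells were positive. It overlaps Kcnq1 on the opposite strand, for which 0 and 2 UMIs were counted. H19, the maternal RNA beside Igf2, had 16 UMIs (0.879 CPM) and 58 UMIs (2.49 CPM), a log2 ratio of -1.47 (interval -2.40 to -0.69). A single knockout cell held 13 of the 16, together with 32 Igf2 UMIs, and a single wild-type cell held 25 of the 58. With only cells of 0 fibroblast UMIs, the ratio was -4.09, from very few knockout UMIs. The knockout cells other than the richest held 3 H19 UMIs in all. At equal depth the knockout cells of 0 fibroblast UMIs held 0. Meg3, the maternal RNA of the Dlk1 domain, had 21 UMIs (1.15 CPM) and 33 UMIs (1.42 CPM), and its ratio of -0.29 (interval -1.16 to 0.53) spanned 0. A single wild-type cell held 26 of the 33 and carried 35 UMIs of the fibroblast markers, 12 of them Dcn. In the fibroblast-rule cells Meg3 reached 2856 CPM (knockout) and 3509 CPM (wild type). With these cells put back, the Meg3 ratio turned to 1.98.

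The paternally expressed genes Peg3, Impact and Snrpn had log2 ratios under 0.5 in size. Peg3, a zinc finger protein, was at 57.3 CPM (1043 UMIs) and 58.8 CPM (1369 UMIs), and its log2 ratio of -0.04 (interval -0.16 to 0.08) spanned 0. Impact, a regulator of the translational stress kinase GCN2, was at 27.1 CPM (493 UMIs) and 21.6 CPM (502 UMIs), a ratio of 0.33 (interval 0.15 to 0.51). Snrpn, a component of spliceosomal particles, had the highest level of the set at 137.6 CPM (2504 UMIs) and 178.6 CPM (4155 UMIs), a ratio of -0.38 (interval -0.45 to -0.30). Its gene overlaps Snurf, which was listed at 0, so reads of the 2 may be counted together.

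Of the 8 genes of the set with at least 10 CPM, 1 was at least 2-fold higher (Mcts2), beside 1.6% of all genes, and 1 at least 2-fold lower (Grb10), beside 0.565%. An interval above 0 was found for 4 of them, beside 40.8% of all genes, and below 0 for 3, beside 22.9%. These counts come from the contrast that chose the genes. A second gene was at least 2-fold higher in cells with at least 2500 genes (Kcnq1ot1, 1.01). The same held without the cells of at least 2 raw endoderm-marker UMIs (Peg10, 1.05). H19 and Meg3 did not reach 10 CPM. Of these, H19 was at least 2-fold lower, beside 1.49% of all genes of at least 1 CPM.

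**Figure D4:**
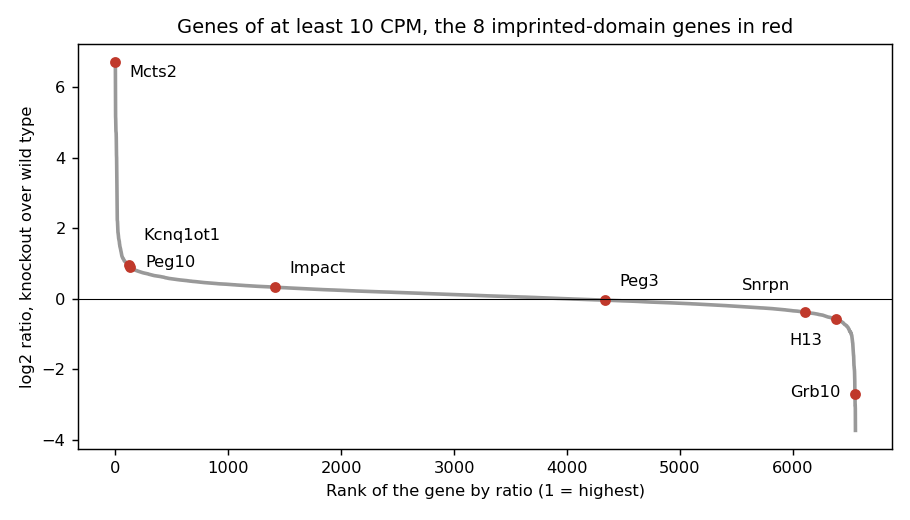
Log2 ratio of knockout over wild type (vertical) for the 6554 genes of at least 10 CPM, ordered by rank from highest to lowest (horizontal, grey line). Red points are the 8 genes of the set that reached this level. Mcts2 is first, Grb10 is sixth from the end and Peg3 is close to 0.

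Knockout cells with and without Mcts2 differed in H13 at equal depth by less than the counting error, and the sign of the difference was not stable. The 302 Mcts2-positive cells held 74 H13 UMIs (23.2 CPM, interval 18.2 to 29.1) and the 359 negative cells 79 (20.8 CPM, interval 16.5 to 26.0). The log2 ratio of positive over negative cells was 0.16 (interval -0.32 to 0.63). It lay between -0.21 and 0.35 over 7 alternatives, and was negative with other draws, with no thinning, without the endoderm-marker cells and with positive cells of at least 2 Mcts2 UMIs. This interval does not show that the cells had the same H13 level. Cells of 1 library are not replicates, and with a mean of 0.646 Mcts2 UMIs per thinned cell many cells without a UMI may contain the RNA. Of the 9 other genes of the set, 0 had an interval off 0 in this split, where no test was run, beside 11.2% of all 6749 genes of at least 10 CPM. Grb10, H19 and Meg3 were under that limit, so the share does not apply to them. Peg10 (0.02), Kcnq1ot1 (-0.03), Snrpn (-0.11), Peg3 (0.17) and Impact (-0.26) lay near 0. Grb10 was at 0.82 (interval -0.14 to 1.85) from 24 and 16 UMIs, Meg3 had 2 and 6 UMIs, and H19 had 0 and 4. Other settings gave other calls. With another seed 3 of the 9 had an interval off 0, all lower in positive cells: Peg10 (-0.33), Impact (-0.56) and H19 (0 and 9 UMIs). A further draw gave H19 alone, at 0 and 8 UMIs. At 15000 UMIs the calls were Peg10 (-0.28), Peg3 (0.29) and H19 (0 and 11 UMIs). Without thinning they were Peg10 (-0.22) and H19 (0 and 16 UMIs), and with positive cells of at least 2 Mcts2 UMIs Impact alone (-1.17, interval -2.13 to -0.41). The remaining 2 alternatives gave 0. H19 again came mostly from 1 cell. Mcts1 was at 0.13 (interval -0.20 to 0.46), and at -0.01 and 0.56 (interval 0.24 to 0.89) in those draws. With 6 positive wild-type cells, the same split was not made there.

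The genes of at least 10 CPM most like Mcts2, by their log2 ratio of positive over negative cells in the 661 thinned knockout cells, were S100g (3.04), Aqp8 (2.19), Clu (2.12), Zyx (1.31) and Col4a1 (1.13). They encode a calcium-binding protein, a water channel, the secreted chaperone clusterin, the focal adhesion protein zyxin and a basement membrane collagen. A ratio of at least 1 in size was met by 0.533% of genes. The 107 and 15 UMIs of S100g came from 12 and 13 cells. Of the 5 genes, 3 were again among the highest with another seed and 1 in the further draw, where S100g was at 0.89 and Clu at 0.05. The share of cells with at least 2 thinned primitive endoderm marker UMIs was 19.9% (interval 15.5 to 24.8) in positive and 14.2% (interval 10.8 to 18.3) in negative cells, and its part in these ratios was not tested.

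Within the knockout library, the endoderm-marker cells differed from the others in several genes of the set. At equal depth 111 cells held at least 2 UMIs of these markers and 550 held 0 or 1, while 10 of 800 wild-type cells held at least 2. Of the 7 genes of the set with at least 10 CPM in these cells, 5 had an interval off 0, beside 41.8% of 6750 genes. These 5 were Mcts2, H13, Peg10, Kcnq1ot1 and Snrpn, of which Mcts2 depended on the setting (below). Grb10 was not among the 7. H13 was at 46.1 CPM (54 UMIs) in the marker cells and 17.0 CPM (99 UMIs) in the others, a log2 ratio of 1.44 (interval 0.93 to 1.93). In wild-type cells with 0 or 1 marker UMI it was 30.1 CPM. Grb10 stood at 12.8 CPM (15 UMIs) and 4.30 CPM (25 UMIs), a ratio of 1.59 (interval 0.54 to 2.55), and Kcnq1ot1 at 116.0 and 57.5 CPM, a ratio of 1.02 (interval 0.71 to 1.30). Peg10 was lower in the marker cells, at 24.7 against 73.5 CPM (-1.55, interval -2.17 to -1.03), as was Snrpn at 67.4 against 148.6 CPM (-1.13, interval -1.49 to -0.81). Peg3 (-0.04) and Impact (0.38) had intervals that spanned 0. Mcts2 was at 75.9 CPM (interval 61.0 to 93.4) and 58.2 CPM (interval 52.1 to 64.7), a ratio of 0.39 (interval 0.03 to 0.72). With raw UMIs and no thinning, where 174 cells carried the markers, it was 0.18 and its interval spanned 0. The interval also spanned 0 in the further draw (0.13, interval -0.26 to 0.49), whereas with another seed it was 0.62 (interval 0.28 to 0.94). In both kinds of knockout cell the Mcts2 level was above the 0.559 CPM of the wild-type library. The H13, Grb10, Kcnq1ot1, Peg10 and Snrpn ratios kept their sign in the 3 alternatives tried. Peg10 moved to -0.67, Snrpn to -0.58 and Kcnq1ot1 to 0.64 with raw UMIs, and Grb10 ranged from 1.10 to 2.78.

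**Figure D5:**
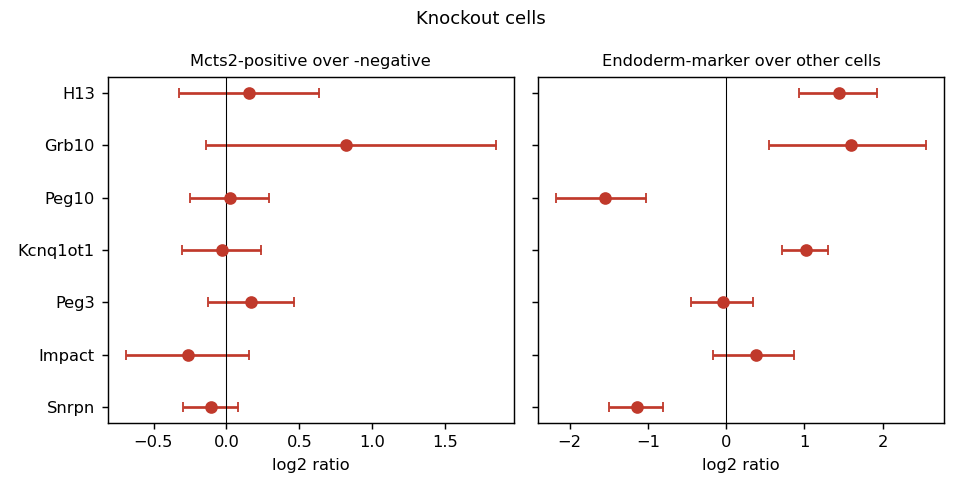
Log2 ratios (horizontal) of 7 genes between sets of thinned knockout cells, with 95% counting intervals. Left, Mcts2-positive over Mcts2-negative cells (302 and 359). Right, cells with at least 2 over cells with 0 or 1 primitive endoderm marker UMIs (111 and 550). On the left each interval spans 0, and on the right H13, Grb10 and Kcnq1ot1 are above 0 and Peg10 and Snrpn below.

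Chromosome 8 took a raised share of UMIs (over 1.2 times the wild-type median) in 369 of the 731 knockout cells (50.5%) and in 9.85% of wild-type cells. Mcts2 was at 59.2 CPM in the raised and 61.3 CPM in the other knockout cells, and H13 at 22.9 and 20.1 CPM. The intervals of both ratios spanned 0. Peg10 was higher in the raised cells (75.2 against 58.9 CPM), and Peg3 (52.3 against 62.7 CPM) and Impact (24.2 against 30.2 CPM) were lower, with intervals off 0. These were 3 of the 7 genes of the set with at least 10 CPM, beside 40.7% of all genes. All 16 H19 UMIs fell in raised cells, 13 of them in 1 cell.

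The other genes of these imprinted domains that reached 10 CPM had smaller ratios in size than Mcts2 or Grb10, and 0 of them were past 2-fold. Of 31 such genes, 29 were matched by symbol and 9 reached 10 CPM. Of these 6 were higher and 3 lower, while 3996 of all 6554 genes were higher. The median log2 ratio of the 9 was 0.10, beside 0.09 over all genes. With TMM scaling, 3 were higher and 6 lower, with a median of -0.01 beside -0.02. An interval above 0 was found for 3 of the 9, beside 40.8% of all genes. In the domain of Grb10, Cobl (an actin nucleator) was at 0.21 (interval 0.05 to 0.37) and Ddc (aromatic amino acid decarboxylase) at 0.30 (interval 0.05 to 0.56), while Grb10 was at -2.69. In the domain of Kcnq1ot1, the cell cycle inhibitor Cdkn1c was at -0.09 (interval -0.27 to 0.08) and Phlda2, a brake on placental growth, at 143.2 and 143.4 CPM (ratio interval -0.08 to 0.07). Ascl2, a trophoblast transcription factor of that domain, had 53 and 157 UMIs (2.91 and 6.75 CPM), with a ratio interval of -1.69 to -0.75. Ube3a, the ubiquitin ligase of the Snrpn domain, was at 0.16 (interval 0.05 to 0.26). Of the 19 domain genes with at least 1 CPM, 2 were at least 2-fold higher (Igf2 and Dlk1) and 1 lower, which was Ascl2. Over all 11829 genes of at least 1 CPM, 467 were at least 2-fold higher and 176 (1.49%) lower. Igf2, the growth factor beside H19, had 97 and 44 UMIs, 32 and 23 of them in 1 cell each, a ratio of 1.49 (interval 0.97 to 2.04). Dlk1, a Notch ligand family member, had 30 and 18 UMIs, a ratio of 1.08 (interval 0.20 to 2.02).

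Mcts2 and H13 are 1 of several pairs of an imprinted retrogene and its host. Zrsr1, a splicing factor copy within Commd1, had 143 and 95 UMIs (7.86 and 4.08 CPM), a log2 ratio of 0.94 (interval 0.56 to 1.33). Its host Commd1, a copper metabolism gene, had 1730 and 2666 UMIs, a ratio of -0.27 (interval -0.36 to -0.18). Nap1l5 had 7 and 1 UMIs beside its host Herc3 at 0.06 (interval -0.55 to 0.66). Nnat had 1 UMI in each library, beside Blcap at -0.09 (interval -0.39 to 0.20). The host Trappc9 was at 0.09 (interval -0.38 to 0.55) and Inpp5f at 0.40 (interval 0.03 to 0.78).

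Of 8 further imprinted genes with at least 10 CPM, 6 were higher and 2 lower (5 and 3 with TMM), with a median log2 ratio of 0.18. Over all 6554 genes 3996 were higher and the median was 0.09. Zdbf2 (0.57) and Jade1 (0.56) were the highest. Gab1 (-0.29) and Gnas (-0.27), an adaptor and a G protein subunit of receptor signalling, were the lower ones. At a limit of 1 CPM, 8 of 15 genes of this list were higher and 7 lower, with a median of 0.07. At that limit 2 were at least 2-fold lower, beside 1.49% of all genes. They were Phactr2 (11 and 37 UMIs) and the fibroblast marker Dcn (8 and 40 UMIs, 22 of the 40 in 1 cell).

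Among genes that maintain, copy, set or remove DNA methylation at imprints, 10 of 12 that reached 10 CPM were higher in the knockout. With TMM 8 of the 12 were higher. Over all 6554 genes 3996 were higher without TMM. The median log2 ratio of the 12 was 0.22, beside 0.09 over all genes. Zfp57 was at 71.9 and 56.3 CPM (1309 UMIs in each library, 0.35, interval 0.24 to 0.47) and Trim28 at 343.6 and 283.1 CPM (0.28, interval 0.23 to 0.33). Dnmt1, at 40.5 and 40.1 CPM, and Uhrf1, at 94.2 and 91.7 CPM, had intervals that spanned 0. The de novo methyltransferase Dnmt3a was at 102.6 against 47.0 CPM (1.13, interval 1.02 to 1.24). Dppa3, which protects the maternal genome from demethylation in the zygote, was at 32.0 against 118.7 CPM (-1.89, interval -2.02 to -1.76), and Dnmt3l, the cofactor of the de novo enzymes, was at 87.4 against 119.4 CPM (-0.45, interval -0.54 to -0.36).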

How the data were processed

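Per the labels' protocols, cells were captured with 10x Genomics Chromium and read on a NovaSeq instrument. The authors deposited raw counts of UMIs per gene and cell, whole numbers with no normalization, per the file headers. The submitters' processing notes name Cell Ranger 2.0.0, Seurat 3.1.1 and mm10. The annotation, the use of strand and any removal of doublets are not given in the sources used here, and no doublet caller was run. Bulk RNA sequencing named in the design was not analysed here.

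Counts were summed over the kept cells and scaled to CPM, and log2 ratios used a prior of 0.5 counts. Intervals (95%) are Poisson for counts, Clopper-Pearson for shares and conditional on the total for ratios. Gene positions come from GENCODE M21, to which 27645 of 27998 gene IDs matched, as did all 10 genes of the set. Each cell was reduced to 10562 UMIs by drawing without replacement. That depth is the 10th percentile over both libraries. The thinning was first drawn with 1 random stream per library, and after its results were seen it was redrawn with a stream per cell, so that leaving out cells does not redraw the rest. Endoderm-marker cells were first defined on raw UMIs and then, as planned, on thinned UMIs. Both first versions are kept as alternatives chosen after seeing the data, and the first draw is the further draw named in the results. The analysis used Python 3.11.15, numpy 2.4.6, scipy 1.17.1 and edgeR 4.0.16 (for TMM scaling only). The ratio step was tested on simulated counts, and the thinning step was checked on deposited wild-type cells.

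The 10 genes and all lists were chosen with earlier results of these data known. Named genes were the 10, Mcts1, genes of at least 10 CPM within 500 kb of H13, members of the lists, and the 5 genes with the highest ratio of Mcts2-positive over Mcts2-negative cells. Alternatives varied the scaling, the cell limits, the thinning and the level limit.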

Additional observations from a re-analysis of the deposited data

Results flagged for a closer look

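Mcts2 was also present in knockout cells that the limits on mitochondrial counts left out. In cells with under 1% mitochondrial counts it was at 98.1 CPM (279 UMIs, interval 86.9 to 110.3), where H13 was at 8.79 CPM and Kcnq1ot1 at 5.27 CPM, and the median depth was 8632 UMIs. In cells above 10% it was at 45.4 CPM (27 UMIs, interval 29.9 to 66.0), with H13 at 40.3 CPM and a median of 7465 UMIs. Both levels were above the 0.559 CPM of the wild-type cells, and wild-type cells left out by the same limits held 0 Mcts2 UMIs, which allows up to 12.9 and 14.1 CPM at the upper end of the intervals.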

How the results depend on the processing

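Of 269 values recomputed under alternatives, 220 stayed within the counting interval of the main value (for shares, within the combined error of both libraries), 48 moved and 1 reversed. Mcts2 kept a log2 ratio of 6.46 to 6.91 and the first rank in each alternative for which ranks were computed. The H13 ratio moved to -0.16 with no limit on fibroblast UMIs and to -0.96 without cells of at least 2 raw endoderm-marker UMIs. The Mcts2 difference in share of cells, knockout minus wild type, was 69.7 percentage points with no thinning, 58.5 at 15000 UMIs and 15.1 when at least 2 UMIs were asked for. The median of the retrogene and host list, which is Commd1 alone at 10 CPM, was -0.38 with TMM factors and reversed to 0.0758 over 6 genes at 1 CPM. At that limit 467 genes were at least 2-fold higher and 176 at least 2-fold lower, against 105 and 37. TMM gave 75 and 55. Peg10 and Kcnq1ot1 fell to 0.74 and 0.77 with no lower limit on mitochondrial counts. The cause of these moves was not tested. In the split by Mcts2, Grb10 ranged from -0.58 to 0.93 and Impact from -1.17 to -0.0043. No paired analysis was possible because there was 1 library of each genotype.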
